A study of Mus musculus with 11 samples.

Results

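Transforming growth factor beta (TGF-beta) signalling was followed through 9 genes in RPE/choroidal tissue of aged mice, 3 months after nanosecond laser treatment. The genes were chosen by name: the ligands Tgfb1, Tgfb2 and Tgfb3, the receptors Tgfbr1 and Tgfbr2, the signal transducers Smad3 and Smad7, and the targets Tgfbi and Ctgf (connective tissue growth factor, since renamed Ccn2). All 9 were among the 14602 genes of the count table. The naïve control group held 6 libraries from untreated C57BL/6J mice aged 12 months. The laser treated group held 5 libraries from C57BL/6J mice that received the 2RT nanosecond laser in one eye at 9 months and were collected at 12 months. Both groups were of this 1 strain, and the labels name no transgene or mutant allele. The neural retina was removed from each eye cup before RNA was taken from the RPE and choroid and pre-amplified with a SmartSeq v4 kit. The sources used here do not say that any libraries share an animal, and the p-values measure the spread between these libraries.

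TGF-beta ligands are secreted in a latent form that is bound to the extracellular matrix by latent TGF-beta binding proteins and released by integrins and proteases. The active ligand joins the type II receptor to the type I receptor, which phosphorylates Smad2 and Smad3, and these enter the nucleus with Smad4 to switch on matrix genes, while Smad7 is induced by the signal and shuts the receptor down. In the RPE, the pathway is known for its part in matrix deposition, wound responses and the transition of epithelial cells to a mesenchymal state.

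None of the 9 genes passed the test between laser treated and naïve control tissue. Expression of Tgfb2 had the largest positive difference of the 9, at 1.66 times the control level (95% interval 0.849 to 3.23), and Tgfbr1 the largest negative one, at 0.550 times (95% interval 0.290 to 1.04). Smad7 was the least variable of the 9 between libraries, and it was higher than the control median in 5 of 5 laser treated libraries. Ctgf was expressed far above the other 8 genes in both groups. With edgeR's quasi-likelihood test and Benjamini-Hochberg adjustment over all genes, 0 of 9 genes had an adjusted p under 0.05, against 0% of the whole table, and 0 of 9 fell below 0.05 before adjustment, against 15.9% of the table. DESeq2 gave an adjusted p only to Tgfb2 (0.272), Tgfbr2 (0.734) and Ctgf (0.414), and called none of them. The other genes of the 9 had no adjusted p from DESeq2 and could not be called by it. Of all 14602 genes, DESeq2 called 3.75% at an adjusted p under 0.05. In 7 of the 9 genes the estimate was higher after laser and in 2 it was lower. Over all genes, 7081 of 14602 were higher. Signs were compared with this fit in 28 settings, of which the setting without a filter equalled it. The sign turned in 9 for Tgfb3, 5 for Tgfbi, 5 for Smad3, 3 for Tgfb1 and 1 for Tgfbr2. The median log2 fold change of the 9 genes was 0.27, beside -0.02 over all genes. That median was 0.07 without control library 3, 0.09 without laser treated library 2, 0.03 with limma voom and 0.14 with a trend on GC content removed. The ranges of the groups overlapped for all 9 genes, while 2.26% of the table had groups that did not overlap.

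Total counts ranged from 25700881 to 38755994 per library. A summed list of 12 RPE markers ranged from 93291 to 129849 CPM (a gene's counts scaled to library size after TMM normalization) in control and from 75336 to 124807 CPM in laser treated libraries, so the labelled tissue was present in every library. Photoreceptor and other retinal transcripts were also present, at 6261 to 25380 CPM in control and 4467 to 19559 CPM in laser treated libraries for 16 genes. Naïve control library 3 stood apart: its summed fibroblast, endothelial, macrophage, pericyte and smooth muscle, Schwann cell and skeletal muscle markers were each the lowest of the 11 libraries, and its retinal markers the highest. Laser treated library 3 was second lowest for the fibroblast, macrophage, pericyte and smooth muscle, and skeletal muscle lists. The first lines of the transcript files label naïve control libraries 1 to 3 and laser treated libraries 1 and 2 as R1 and the others as R2, and the meaning of this label is not given in the sources used here. In bulk tissue, fewer cells of a type and less RNA per cell cannot be told apart.

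Smad3 and Smad4 bind a short DNA core, CAGAC, which reads GTCTG on the other strand. RefSeq start sites (GRCm38.p6) were at hand for 6 of the 9 genes, and the 250 bases upstream of each were searched for both forms. Tgfb2 and Tgfbi held 2 matches each, Tgfbr2 held 1, and Tgfb1 and Smad3 held 0. Of the pair of starts listed for Tgfbr1, the first had 0 matches and the other had 1. Of 32851 upstream windows of this length, 42.2% held at least 1 match and 11.5% held 2 or more. Shown are the window of the ligand Tgfb2 (chr1:186705990-186706239, minus strand) and part of the window of the target Tgfbi. These windows held the most matches of the genes searched. The Tgfbi window searched was chr13:56609336-56609585, plus strand. Its first 187 bases, to 56609522, are shown, ending where the annotated gene begins. Capitals mark the matches, and the sequences run 5′ to 3′.
Tgfb2: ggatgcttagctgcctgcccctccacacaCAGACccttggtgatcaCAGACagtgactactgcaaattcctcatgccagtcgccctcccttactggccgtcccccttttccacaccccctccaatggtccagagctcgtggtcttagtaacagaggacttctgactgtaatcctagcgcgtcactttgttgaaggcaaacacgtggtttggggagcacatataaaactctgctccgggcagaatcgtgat
Tgfbi: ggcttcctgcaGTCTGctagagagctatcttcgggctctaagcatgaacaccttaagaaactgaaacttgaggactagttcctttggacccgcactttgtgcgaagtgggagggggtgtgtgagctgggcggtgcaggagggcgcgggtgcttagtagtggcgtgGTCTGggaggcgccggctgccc
A match describes the letters of these windows and does not show that a Smad was bound there.

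The levels of the 9 genes were compared per exon length, as RPKM (CPM divided by the exon length in kilobases). In naïve control libraries Ctgf, a secreted matrix-associated protein that TGF-beta induces, had the highest level, 25.0 RPKM on average. It was followed by Tgfb3 at 3.69, Tgfb2 at 2.79, Smad3 at 2.73, Tgfbr1 at 2.59 and Tgfbr2 at 2.42 RPKM. Smad7 at 1.48, Tgfbi at 1.16 and Tgfb1 at 0.578 RPKM were at the low end. The gap between Ctgf and Tgfb3 was the one step in this order where the ranges of neighbouring genes did not overlap, in either group. The ranges of all other neighbours overlapped in both groups. In laser treated libraries Tgfb2 had the next highest mean after Ctgf, at 4.62 RPKM, and Tgfbr1 was second from the end, at 1.43 RPKM. The order in control libraries was the same with the length of the longest transcript in place of all exons. By the TPM of the transcript files, summed per gene, Ctgf was again highest and Tgfb1 lowest in control libraries, and the 7 genes between them changed places. With TPM weighted by the exon bases of each assembled piece, Tgfb2 ranked 6 in control libraries, after Smad3, Tgfbr1 and Tgfbr2. The other genes then kept their order.

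**Figure D1:**
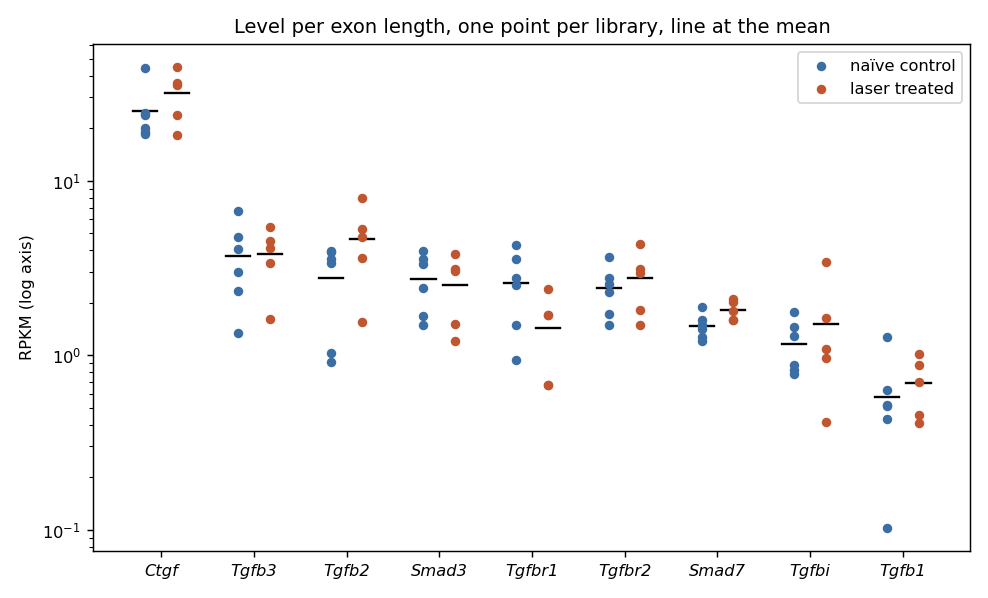
Level of each gene in RPKM, on a log axis, with 1 point per library, a line at each group mean, and genes ordered from left to right by the control mean. Ctgf, at 25.0 RPKM in control and 31.8 RPKM in laser treated libraries, does not overlap with any neighbour, whereas the other 8 genes overlap along their order.

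Among the ligands, Tgfb2 (chr1:186622792-186705989), the isoform known for its abundance in the posterior eye, varied most in absolute terms. In naïve control libraries it had a lowest value of 5.32, a median of 20.01 and a highest value of 23.0 CPM. The laser treated libraries 1 to 5 had 27.4, 8.94, 20.8, 30.4 and 46.2 CPM. Control libraries 2 and 6 and laser treated library 2 were low, the other control libraries lay close together, and laser treated libraries 1, 4 and 5 were above every control library. The control mean was 16.1 ± 8.24 CPM (SD, n = 6), and the mean after laser was 26.7 ± 13.6 CPM (SD, n = 5). The log2 fold change was 0.73 with a standard error of 0.45 (adjusted p = 0.466, edgeR). An exact two-sided permutation test of log2 CPM gave p = 0.188. Within R1 the difference of log2 CPM was 0.15 and within R2 it was 1.21, and whether these differ was not tested. Without laser treated library 5 the log2 fold change was 0.44, and without laser treated library 2 it was 0.95. Without both libraries 3 it was 0.88. The exons of Tgfb2 overlap 124 bases of an antisense gene, Gm29491, and whether the counting used strand is not given in the sources used here.

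Tgfb1 (chr7:25687002-25705077), the isoform most tied to immune cells and platelets, was the lowest of the 9 genes in counts, with 16 to 189 counts per library. Its naïve control values had a lowest of 0.517, a median of 2.59 and a highest of 6.41 CPM. After laser, libraries 1 to 5 had 2.07, 5.14, 4.45, 2.29 and 3.55 CPM. Control library 3, the library with the fewest stromal and immune marker transcripts, was the low extreme, and the groups otherwise shared one range. Both libraries numbered 2 had the highest value of their group. The log2 fold change was 0.27 with a standard error of 0.57 (adjusted p = 0.884, edgeR), and the ratio could lie anywhere from 0.517 to 2.80. Without control library 3 the log2 fold change was 0.03, without both libraries 3 it was -0.05, and without control library 2 it was 0.66. At its lowest count, counting error alone gives a coefficient of variation of 25.0%.

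Tgfb3 (chr12:86056745-86079041), the isoform known for its part in palate closure, had control values with a lowest of 4.55, a median of 11.9 and a highest of 22.7 CPM. The laser treated libraries 1 to 5 had 11.4, 14.0, 5.45, 18.4 and 15.3 CPM. The lowest values of both groups were those of the libraries numbered 3, the ones with the lowest fibroblast marker sums of their groups, 93.9 and 105 CPM. The control libraries averaged 12.5 ± 6.46 CPM (SD, n = 6), against 12.9 ± 4.87 CPM (SD, n = 5) after laser. Its log2 fold change was 0.05 with a standard error of 0.39 (adjusted p = 0.971, edgeR), and the sign changed with the setting. Exons of Tgfb3 overlap the opposite-strand genes Gm37804 and Gm48008 by 163 and 257 bases.

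**Figure D2:**
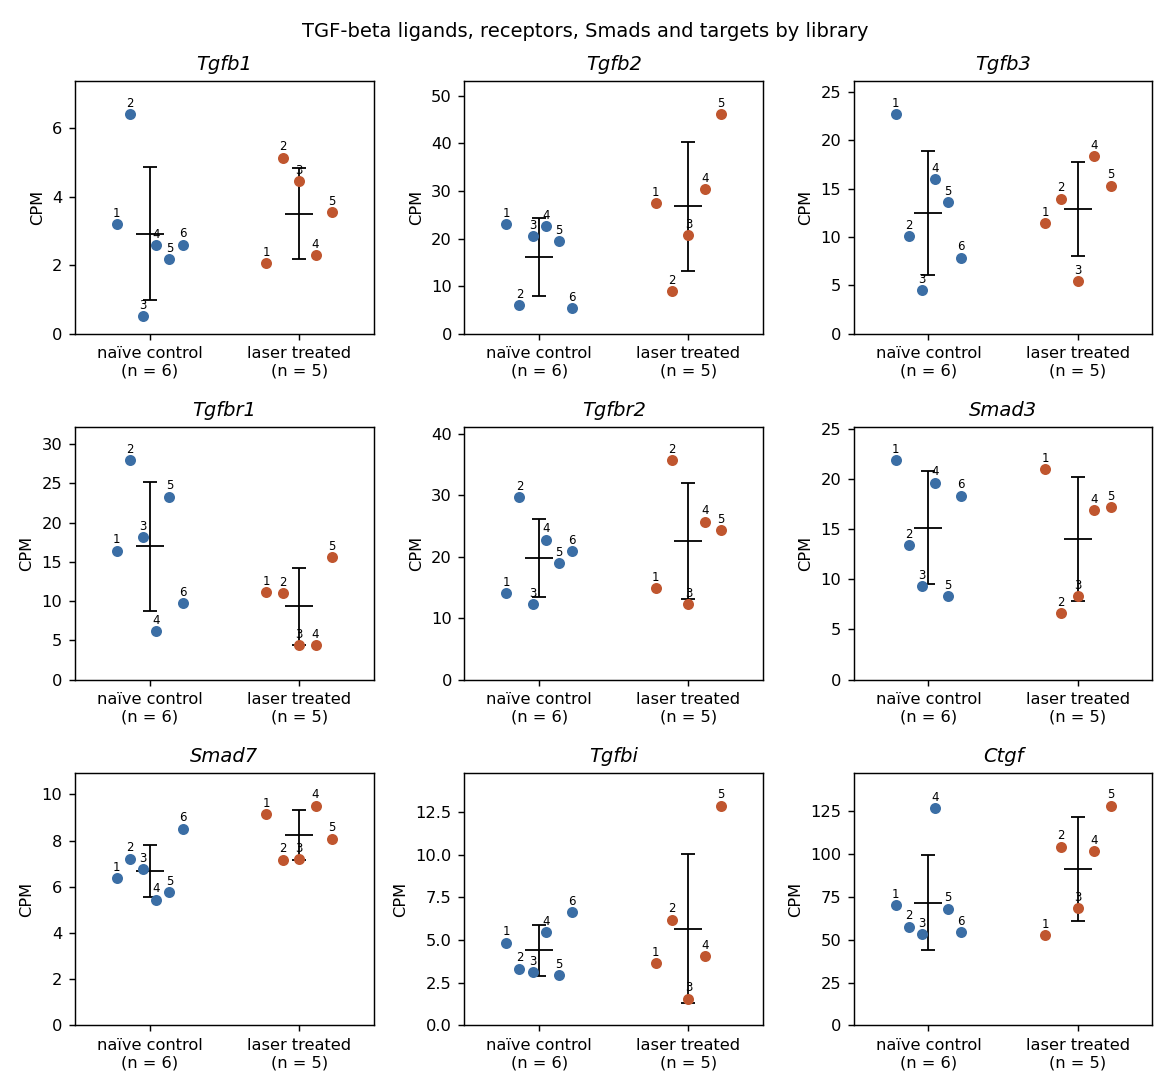
CPM of each gene, with 1 numbered point per library and the mean with its SD as a black bar, for naïve control (n = 6) and laser treated (n = 5) libraries. The groups overlap in all 9 panels. In the panel of Smad7 the 5 laser treated libraries sit between 7.18 and 9.51 CPM, and in the panel of Tgfbr1 they sit between 4.38 and 15.6 CPM, below the control median of 17.3 CPM.

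The estimates of the receptors had opposite signs, with neither past the test. Tgfbr1 (chr4:47353222-47414931) encodes the type I receptor, the kinase that phosphorylates Smad2 and Smad3. Its control values had a lowest of 6.13, a median of 17.3 and a highest of 28.0 CPM. Libraries 1 to 5 of the laser treated group had 11.2, 11.0, 4.39, 4.38 and 15.6 CPM. All 5 laser treated libraries were below the control median, though control libraries 4 and 6 were as low as the laser treated ones. The control mean was 16.96 ± 8.17 CPM (SD, n = 6), and the mean after laser was 9.32 ± 4.87 CPM (SD, n = 5). On the log2 scale the estimate was -0.86 with a standard error of 0.43 (adjusted p = 0.347, edgeR). The exact two-sided permutation p of log2 CPM was 0.126. The difference of log2 CPM was -0.87 within R1 and -0.73 within R2. The log2 fold change from edgeR was -0.66 without both libraries 3. The longest transcript of Tgfbr1 has a GC content of 41.0%, the lowest of the 9 genes. With the trend of each library's log2 CPM on GC content removed, the log2 fold change of Tgfbr1 was -0.50.

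Tgfbr2 (chr9:116084293-116175360) encodes the type II receptor, which binds the ligand first. Its control values had a lowest of 12.3, a median of 19.9 and a highest of 29.7 CPM. The laser treated libraries 1 to 5 had 14.9, 35.7, 12.2, 25.7 and 24.3 CPM. The libraries numbered 3 were the lowest and those numbered 2 the highest of each group. Its log2 fold change was 0.19 with a standard error of 0.30 (adjusted p = 0.830, edgeR), a ratio of 1.14 with an interval from 0.732 to 1.78. Without laser treated library 2 it was -0.04. That library also had the highest summed endothelial (598 CPM) and pericyte and smooth muscle (351 CPM) markers of the 11, and their part in the result was not tested.

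Smad3 (chr9:63646767-63757994), the receptor-activated Smad of this branch, and Smad7 (chr18:75367529-75395935), its inhibitor, differed in how closely the libraries agreed. Smad3 had control values with a lowest of 8.29, a median of 15.9 and a highest of 21.9 CPM. Its laser treated libraries 1 to 5 had 20.98, 6.66, 8.33, 16.9 and 17.2 CPM. High and low libraries were found in both groups, and the log2 fold change was -0.11 with a standard error of 0.35 (adjusted p = 0.920, edgeR). The interval of its ratio ran from 0.550 to 1.56. Without control library 1 the log2 fold change was 0.02.

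Smad7 had control values with a lowest of 5.44, a median of 6.56 and a highest of 8.52 CPM. Its laser treated libraries 1 to 5 had 9.16, 7.18, 7.19, 9.51 and 8.08 CPM. Every laser treated library was above the control median, and control library 6 was the one control above 3 of them. The control mean was 6.68 ± 1.11 CPM (SD, n = 6), and the mean after laser was 8.23 ± 1.09 CPM (SD, n = 5), with coefficients of variation of 16.6% and 13.2%. The log2 fold change was 0.30 with a standard error of 0.25 (adjusted p = 0.613, edgeR). The exact two-sided permutation test of log2 CPM gave p = 0.0455, with no adjustment for the 9 genes so tested, where the smallest p that the 462 splits allow is 0.00216. By the same test 16.2% of all genes had a p under 0.05 and 8.55% were higher after laser at that p, so a p of this size was common in the table. The p moved to between 0.0714 and 0.105 when any 1 of control libraries 1, 3, 4 or 5 or laser treated libraries 1, 4 or 5 was left out. The log2 fold change was 0.26 within R1 and 0.35 within R2, on log2 CPM. Smad7 has the highest GC content of the 9 genes, 56.9%, and with the GC trend removed its log2 fold change was 0.09.

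The transcript files gave a second measure of Smad7. Weighted by the exon bases of each assembled piece, its TPM ranged from 0.851 to 1.91 in control and from 1.74 to 2.61 in laser treated libraries, a log2 fold change of 0.67 (limma, adjusted p = 0.205). Only 1 piece of the gene was assembled in control libraries 1 to 3, covering 45.7% to 45.9% of its exon bases, and 2 pieces in the other libraries.

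**Figure D3:**
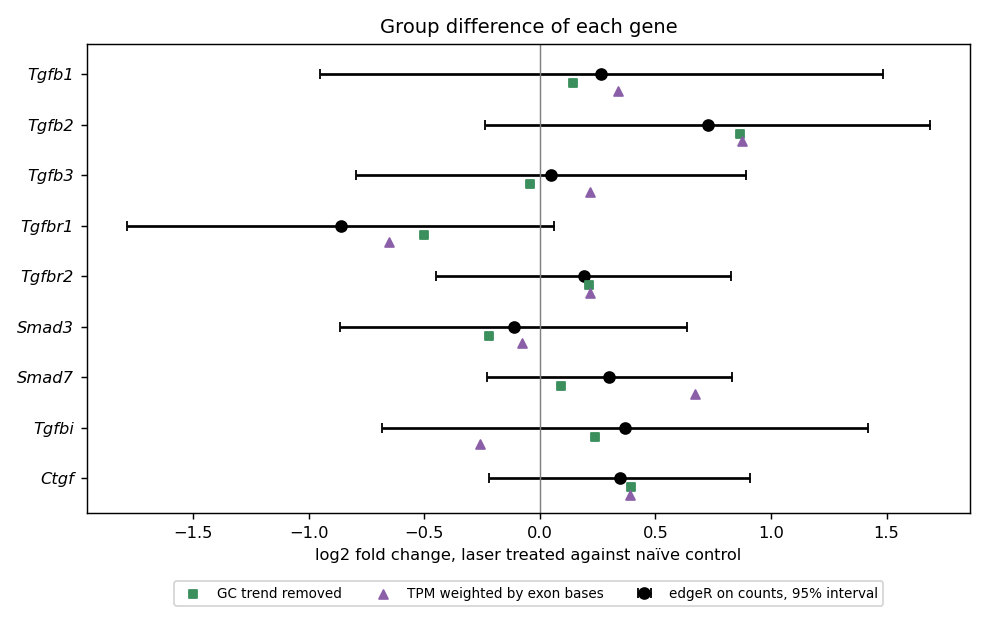
Log2 fold change after laser, relative to naïve control tissue, for each gene: black points with 95% intervals from edgeR on the counts, green squares with the trend on GC content removed, and purple triangles from TPM weighted by exon bases. Each interval includes 0. Tgfbr1 moves from -0.86 to -0.50 and Smad7 from 0.30 to 0.09 when the GC trend is removed, whereas Tgfb2 moves from 0.73 to 0.87.

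The targets were both matrix proteins. Tgfbi (chr13:56609523-56639562), a secreted protein that TGF-beta induces in many cells, had control values with a lowest of 2.95, a median of 4.08 and a highest of 6.65 CPM. After laser, libraries 1 to 5 had 3.63, 6.20, 1.57, 4.07 and 12.9 CPM. Laser treated library 5 was nearly 2 times any other library and laser treated library 3 was the lowest of all. Its log2 fold change was 0.37 with a standard error of 0.49 (adjusted p = 0.792, edgeR). Without laser treated library 5 it was -0.18.

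Ctgf (chr10:24595442-24598683) had control values with a lowest of 53.1, a median of 62.9 and a highest of 126.6 CPM. In laser treated libraries 1 to 5 the values were 52.6, 104, 68.3, 101.7 and 128 CPM. Control library 4 was close to the highest laser treated library, and the remaining 5 control libraries were between 53.1 and 70.2 CPM. The control mean was 71.7 ± 27.8 CPM (SD, n = 6), and the laser treated libraries averaged 91.0 ± 30.3 CPM (SD, n = 5). The log2 fold change was 0.35 with a standard error of 0.26 (adjusted p = 0.578, edgeR). The exact two-sided permutation p was 0.262, and the difference of log2 CPM was 0.31 within R1 and within R2. Without control library 4 the log2 fold change was 0.58, with an adjusted p of 0.269 from edgeR, and without laser treated library 5 it was 0.19. Control library 4 also had the highest summed fibroblast (513 CPM) and macrophage (1055 CPM) markers of all 11 libraries. With the fibroblast score in the fit the log2 fold change of Ctgf was 0.28, and the part of the macrophage markers was not tested. The exons of Ctgf overlap 665 bases of the opposite-strand gene Gm15270.

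The 9 genes did not share a single pattern over the libraries. After the group means of log2 CPM were removed, the closest pair among them was Tgfb3 and Ctgf, with a Pearson correlation of 0.599 over 11 libraries, followed by Tgfbi and Ctgf at 0.564 and Tgfb1 and Tgfbr2 at 0.534. Laser treated library 5 was the highest of all libraries in 3 of the 9 genes (Tgfb2, Tgfbi and Ctgf). The libraries numbered 3 held the lowest value in 4 of the 9 genes between them. All libraries contribute to each correlation, and cell content and sequencing depth are shared by the genes of a library.

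**Figure D4:**
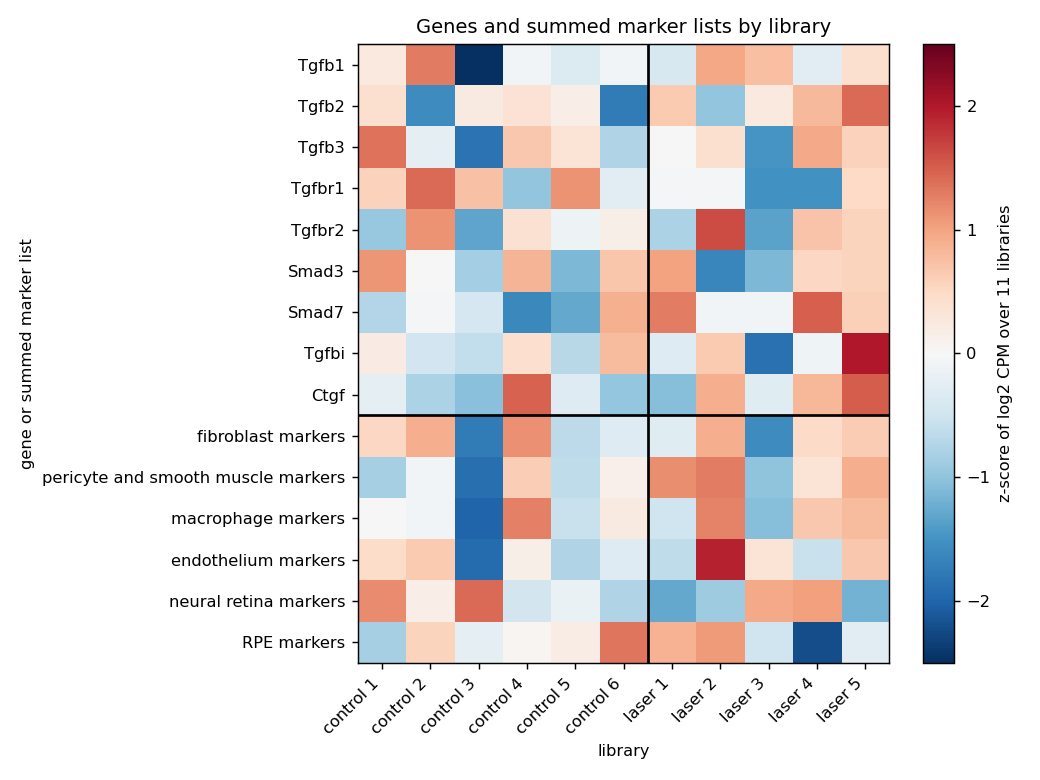
Heat map of the 9 genes and of 6 summed marker lists over the 11 libraries, with naïve control libraries left of the vertical line and laser treated libraries right of it. Colour gives the z-score of log2 CPM in each row. Control library 3 and laser treated library 3 are blue in the fibroblast, pericyte and smooth muscle, and macrophage rows and in Tgfb3 and Tgfbr2.

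For each of the 9, the gene of the whole table with the most similar course was found by the same correlation. Ctgf was closest to Slc11a1, a metal transporter of macrophages, with a Pearson correlation of 0.979 and a Spearman correlation of 0.927 over 11 libraries. Tgfb2 was closest to Awat2, an acyltransferase of wax and retinyl ester synthesis, at 0.963. Tgfbr2 was closest to Flna, the actin crosslinker filamin A, at 0.940, and Tgfb1 to Tap1, the peptide transporter of antigen presentation, at 0.942. The partners of Tgfb3 and Tgfbr1 were Aldh1b1 at 0.930 and B230219D22Rik at 0.934. For Smad3 and Smad7 they were Tmem88b at 0.910 and Pla2g3 at 0.899. Tgfbi was closest to 4930563D23Rik, since renamed Fam243, at 0.918. Without the pair of libraries farthest from each gene's median, every correlation was lower. It was then 0.657 for Tgfbi, 0.784 for Tgfb3, 0.803 for Tgfb1 and 0.826 for Smad3. For the other genes it was 0.872 to 0.947. Each partner is the best of 14601 genes compared, and the values are given as a description.

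The other genes of the pathway were taken from a list of 70 genes by role, of which 66 were measured. None had an adjusted p under 0.05 in edgeR (smallest adjusted p = 0.177). Before adjustment, 13 of 66 (19.7%) were past 0.05, 4 higher and 9 lower, beside 15.9% of all genes, 8.24% higher and 7.68% lower. The median log2 fold change was 0.03.

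Those higher all belonged to the 13 genes of ligand storage and activation, of which 4 were higher and 1 lower at that p. Ltbp3, a latent TGF-beta binding protein, had 56.8 to 140.4 CPM in control libraries and 129, 189, 129, 162 and 126 CPM in laser treated libraries 1 to 5. Every laser treated library was above the control median. Its log2 fold change was 0.50 with a standard error of 0.22 (adjusted p = 0.279, edgeR). Ltbp4, of the same family, had a log2 fold change of 0.82. Itgb5, an integrin subunit that takes part in releasing latent TGF-beta and in the uptake of outer segments by the RPE, had 0.62, and Furin, the protease that processes the ligand precursor, had 0.37. Itgav, the partner of Itgb5 in its integrin, had -0.39, with all 5 laser treated libraries below the control median. The 4 higher genes have a GC content of 55.9% to 62.2% and Itgav of 43.5%. With the GC trend removed, 3 of the 66 were past 0.05 before adjustment, of which Itgb5 and Bmpr2 were among the 13, and the log2 fold changes were 0.29 for Ltbp3, 0.59 for Ltbp4, 0.42 for Itgb5, 0.17 for Furin and -0.10 for Itgav.

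Ltbp1, which tethers latent TGF-beta in the matrix, was split by the R1 and R2 labels. Naïve control libraries 1 to 6 had 3.23, 1.79, 4.68, 6.495, 5.96 and 2.24 CPM. The laser treated libraries labelled R1, libraries 1 and 2, had 0 and 0.0815 CPM, and those labelled R2 had 14.0, 15.6 and 37.3 CPM. The laser treated libraries were thus below all control libraries in R1 and above all control libraries in R2. The difference between the labels was not tested, and over all libraries the log2 fold change of 1.72 had a standard error of 1.14 (adjusted p = 0.512, edgeR).

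Among 11 further genes listed under receptors, 4 were lower and 0 higher at an unadjusted p under 0.05. Over all genes, 7.68% were lower and 8.24% higher at that p. Of all 66 pathway genes, 1 had groups that did not overlap, beside 2.26% of the whole table. This gene was Acvr2a, an activin receptor, with 11.4 to 19.2 CPM in control libraries. It had 10.4, 1.79, 11.1, 8.20 and 8.00 CPM in laser treated libraries 1 to 5. Its log2 fold change was -0.998 with a standard error of 0.37 (adjusted p = 0.225, edgeR). The bone morphogenetic protein receptors Bmpr2 and Bmpr1a had log2 fold changes of -2.39 and -0.44, where Bmpr2 was at a low level in both groups, 0.601 to 4.72 CPM and 0.0601 to 0.802 CPM. Tgfbr3, the co-receptor betaglycan that presents Tgfb2, had -0.36, with 5 of 5 laser treated libraries below the control median. Eng, the endothelial co-receptor endoglin, had 0.63 (adjusted p = 0.403, edgeR). The longest transcripts of Acvr2a, Bmpr2 and Bmpr1a have a GC content of 39.9% to 41.3%. With the GC trend removed the log2 fold changes of these genes were -0.69, -1.99 and -0.11.

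Of 6 further genes listed under Smads (Smad1, Smad2, Smad4, Smad5, Smad6 and Zfyve9), Smad5 alone was past an unadjusted p of 0.05. Of the whole table, 15.9% were past that p, 8.24% higher and 7.68% lower. The log2 fold change of Smad5 was -0.76, and Smad5 is named here after its value was seen. Smad2 and the shared partner Smad4 had log2 fold changes of -0.21 and 0.08, and the inhibitory Smad6 had 0.50, each with groups that overlapped. Of 14 inhibitors and regulators, 0 were higher and 2 lower at that p, among them Skil, a Smad repressor that the signal induces, at -0.68 (adjusted p = 0.268, edgeR). The decoy receptor Bambi had 0.39. Of 22 further targets, 1 was past an unadjusted p of 0.05, or 4.55%, beside 15.9% of the whole table. This was Id2, a target of bone morphogenetic proteins that TGF-beta represses in epithelia, at -0.54. Acvr1c, Smad9 and Snai1 were among the listed genes not analysed here.

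**Figure D5:**
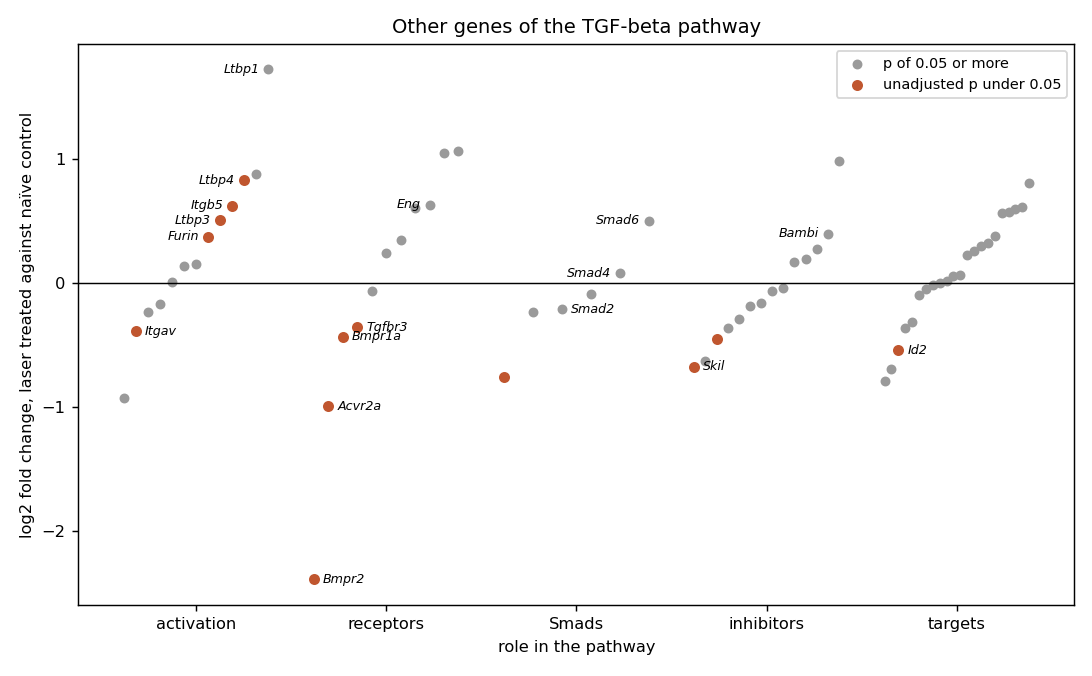
Log2 fold change after laser, relative to naïve control tissue, for 66 other pathway genes, grouped by role on the horizontal axis and ordered by value within each role. Orange points had an unadjusted p under 0.05 in edgeR, as had 15.9% of all genes. The 4 higher ones are all in the activation group, the receptors hold 4 of the 9 lower ones, and 1 of 22 targets is orange.

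Markers of other cell types are given beside these values, and their part in the results was not tested beyond the fits that follow. The fibroblast markers summed to 93.9 to 513 CPM in control and 105 to 451 CPM in laser treated libraries, and 0 of 10 had an unadjusted p under 0.05. For Schwann cell markers it was 4 of 7, beside 15.9% of all genes, and their median log2 fold change was 0.62. Their sums were 411 to 715 CPM in control and 624 to 1358 CPM in laser treated libraries. It was 2 of 12 for RPE, 1 of 16 for retinal, 1 of 8 for melanocyte and 1 of 7 for platelet and blood markers. The endothelium, macrophage, pericyte and smooth muscle, and skeletal muscle lists had 0. The retinal and fibroblast scores were not these sums but the mean, over the markers of a list, of each marker's z-score of log2 CPM. With the retinal score in the fit, the log2 fold change of Tgfbr1 was -1.11 and that of Tgfbi was 0.07. With the fibroblast score in the fit these were -0.86 and 0.12, and Tgfb3 was at -0.12.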

How the data were processed

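Bulk RNA-seq of RPE/choroid was analysed for 6 naïve control and 5 laser treated libraries, grouped by their labels. The authors deposited raw counts per gene without normalization or pooling. The submitters' processing notes name bcl2fastq 2.18.0.12, Trim Galore, STAR 2.5.3a, featureCounts 1.5.3, StringTie 1.3.3 and edgeR 3.22.3, with mm10 and GRCm38. The deposited log2 fold change and abundance, the score (F statistic) and the p-value columns hold the authors' own comparison and were not used. StringTie coverage, FPKM and TPM were deposited by the authors per assembled transcript, each with 1 exon. A piece was given to a gene when at least 50% of it lay on exons of 1 gene.

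Counts were tested with edgeR 4.0.16 in R 4.3.3 (TMM, filterByExpr, which removed 0 genes, and robust quasi-likelihood fits), with Benjamini-Hochberg adjustment over 14602 genes at 0.05. Log2 CPM used a prior count of 2. Exact two-sided permutation tests covered 462 splits. Coordinates, exon lengths and GC content are from GENCODE M21 on GRCm38: 13045 genes matched by identifier, 10 by symbol, 1188 by older symbol and 359 did not. Totals of 25700881 to 38755994 counts per library and the standard errors give the precision. Counting errors cover counting only.

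The 9 genes and all lists were chosen with earlier results of these data known. Also named were up to 5 pathway genes in each direction with the smallest unadjusted p under 0.05, a fixed set (Ltbp1, Ltbp3, Tgfbr3, Eng, Smad2, Smad4, Smad6, Bambi and Skil; a further item is not reported here) and the gene most like each of the 9. Other cell type lists covered RPE, neural retina, fibroblast, endothelium, macrophage, pericyte and smooth muscle, Schwann cell, melanocyte, skeletal muscle, and platelets and blood; 0 genes of any list passed the adjusted threshold. Alternatives were DESeq2 1.42.0, limma 3.58.1 (voom, and or log2 TPM after adding 1 or 0.1), upper quartile scaling, other filters, the replicate number as a block, GC or length trends removed, score or label covariates, and each library left out. TPM weighted by exon bases, the fit without both libraries 3 and longest-transcript lengths were chosen after seeing the data. Methods were tested on simulated data.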

Additional observations from a re-analysis of the deposited data

Results flagged for a closer look

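Ctgf was at 126.6 CPM in naïve control library 4, where the other 5 control libraries had 53.1 to 70.2 CPM, a gap large for a group of this size by Dixon's criterion. It was 1 of 18 groups of a gene and a condition tested in this way, and chance alone flags about 5% of groups.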

How the results depend on the processing

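Across 28 settings Tgfb2 (log2 fold change 0.44 to 0.95), Tgfbr1 (-1.13 to -0.50), Smad7 (0.09 to 0.71) and Ctgf (0.19 to 0.58) kept their sign. Of these settings, 11 left out a library. The setting without a filter repeated the main fit, because filterByExpr removed 0 genes. No gene of the 9 had an adjusted p under 0.05 in any setting that gave it one (smallest 0.183). DESeq2 gave no adjusted p to Tgfb1, Tgfb3, Tgfbr1, Smad3, Smad7 and Tgfbi. The cause of the changes below was not tested. The sign of Tgfb3 turned with voom (-0.17), the GC trend removed (-0.045) and the fibroblast score (-0.12). Tgfbi turned with voom (-0.0046) and with TPM at a pseudocount of 1 (-0.094), of 0.1 (-0.16) and weighted (-0.26). Tgfb1 turned with TPM (-0.021 and -0.35) and without both libraries 3 (-0.055), and Smad3 with TPM (0.27 and 0.29). No piece of Tgfb1 was assembled in laser treated library 1, so its TPM there was 0. In the other libraries its piece covered at most 23.0% of the exon bases.

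Leaving out each library in turn gave 0.03 to 0.66 for Tgfb1, -0.14 to 0.31 for Tgfb3, -0.038 to 0.35 for Tgfbr2, -0.30 to 0.065 for Smad3 and -0.18 to 0.61 for Tgfbi. On log2 CPM the differences were -0.14 to 0.40, -0.046 to 0.34, -0.33 to 0.081 and -0.27 to 0.48 for the last 4 of these genes, -1.13 to -0.65 for Tgfbr1 (exact permutation p = 0.0476 to 0.257) and 0.25 to 0.38 for Smad7 (exact permutation p = 0.0238 to 0.105).

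Over all genes, DESeq2 called 547 genes, 1 of them in the pathway, a minimum of 10 counts gave 2, voom 1, and TPM 3 and 4, beside 0 in edgeR (2325 at an unadjusted p under 0.05). Leaving out a library gave 0 to 4. At an unadjusted p there were 1070 genes with the GC trend removed and 1382 without both libraries 3. Of the pathway, 6 genes were past it with the length trend removed, 3 with the GC trend removed, 6 without both libraries 3, and 6 to 13 with a library left out. Of the 9 genes, 1 was past it with voom (Tgfbr1), TPM (Smad7, at both pseudocounts and weighted) or the retinal score (Tgfbr1), and 0 to 2 with a library left out.

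The replicate numbers did not pair the libraries: same-numbered libraries had correlations of -0.01 to 0.28, and 2 of 5 laser treated libraries correlated best with their own number. With the number as a block 2546 genes and 1 of the 9 (Tgfbr1, -0.99) had an unadjusted p under 0.05, and 0 an adjusted one. With the block and the GC trend removed these were 1481 genes, 4 in the pathway and 1 of the 9 (Tgfb2, 0.66), and Tgfb3 was at -0.091.

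Depth limited Tgfb1 and Tgfbi, with 16 and 55 counts in their lowest libraries, more than Ctgf, with 1421.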
